A study of Mus musculus with 20 samples.

Results

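The 29 genes described here make, move and regulate cholesterol in the mouse small intestine. They were chosen by symbol, with earlier results of these data known. The list holds 18 enzymes of cholesterol synthesis, 4 genes of the sterol sensor, 1 cytosolic sterol carrier, and 6 genes of uptake, export and esterification. All 29 were found among the 55487 gene rows of the count table, and all 29 passed the filter on low counts that left 17464 genes for testing. PolyA RNA of small intestine from 20 libraries was sequenced in bulk, in 4 groups of 5 libraries: offspring of dams with periodontitis at 7 weeks, offspring of control dams at 7 weeks, offspring of dams with periodontitis at 2 weeks, and offspring of control dams at 2 weeks. Periodontitis is a bacterial inflammation of the gums and the bone around teeth. The condition was the dam's, and the offspring are called periodontitis offspring and control offspring below. Strain, sex, litter, pooling, intestinal segment and the way periodontitis arose were not given in the labels. If libraries of a group came from 1 litter, the p-values below measure only the spread between these libraries. The deposited counts summed to between 14882204 and 42563229 per library. Levels are given as CPM, counts per mega count of the library after TMM scaling of the library size (trimmed mean of M values).

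Cholesterol is built from acetyl-CoA by way of mevalonate, farnesyl diphosphate, squalene and lanosterol. When sterol in the endoplasmic reticulum is low, the escort protein Scap carries the transcription factor SREBP2 to the Golgi, where it is cut and released to switch on the synthesis genes. When sterol is plentiful, the Insig proteins hold the Scap complex back. Enterocytes also take cholesterol up from the gut lumen through Npc1l1, return it through the Abcg5 and Abcg8 pair, esterify it with Soat2 for chylomicrons, and pass it to lipoproteins in blood through Abca1.

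All 10 enterocyte markers had counts in all 20 libraries, with a summed level of 48110 to 133000 CPM in periodontitis offspring at 7 weeks, 78840 to 133000 CPM in control offspring at 7 weeks, 42340 to 59150 CPM in periodontitis offspring at 2 weeks and 32540 to 47790 CPM in control offspring at 2 weeks. The distal markers Fgf15, the ileal hormone, and Fabp6, the ileal bile acid carrier, were absent or nearly so at 7 weeks: Fgf15 had 0 counts in all 10 libraries, and Fabp6 had 0 counts in periodontitis offspring and 21 in control offspring. At 2 weeks Fgf15 lay at 55.2 to 126 CPM in periodontitis offspring and at 39.5 to 65 CPM in control offspring. Fabp6 at 2 weeks lay at 365 and 329 CPM in periodontitis libraries 1 and 2 and at 17.5, 2.92 and 8.07 CPM in periodontitis libraries 3, 4 and 5, against 197 to 510 CPM in control offspring. Slc10a2, another distal marker, read 19.6 and 19.3 CPM at 2 weeks in periodontitis libraries 1 and 2 and 1.36, 2.44 and 1.41 CPM in libraries 3, 4 and 5. In control offspring of 2 weeks it lay at 14.1 to 167 CPM. The stretch of intestine sampled and the age of the animals therefore cannot be told apart. Between dams at 2 weeks, 5 of the 10 distal markers had a positive and 5 a negative log2 fold change. Of 9 proximal markers 2 were positive and 7 negative, and 0 genes of either list passed the threshold. Whether the stretch differed between dams at 2 weeks was not tested, and the stretch and the kind of dam cannot be told apart there. One library stood apart at 2 weeks: control library 5 had the lowest depth and 29.4% mitochondrial counts, against 3.99% to 9.15% in the other 19. At 7 weeks periodontitis library 5 stood apart, with a mean enterocyte marker level of 11.4 log2 CPM against 12.1 to 12.3 in the other 4 of its group and a mean proliferation marker level of 4.82 against 2.89 to 3.46. Calls among the 29 genes that changed when either library was left out are given with and without it.

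Promoter sequences were looked up for the members, since SREBP2 acts together with the factor NF-Y at many sterol genes. RefSeq promoters on GRCm38.p6 were at hand for 23 of the 29 genes, and not for Fdps, Fdft1, Sqle, Stard4, Scarb1 and Soat2. In the 250 bases upstream of each start, both strands were searched for the SREBP site TCACNCCAC and for the NF-Y box CCAAT, motifs that do not overlap in the sequences shown. Of 30 member promoters (some genes have several), 1 held the SREBP site (3.33%), against 1.05% of the 32851 promoters of the table, and 19 held CCAAT (63.3%), against 33.8%. Hmgcs1 is shown as the promoter with the SREBP site, at position -137 from the start. Sc5d and Npc1l1 are shown as genes that rose with age, and Lss as a gene that fell. The upstream bases follow 5′ to 3′ on the gene's strand, with matches to either motif on either strand in capitals.
Hmgcs1 chr13:119690101-119690350, plus strand: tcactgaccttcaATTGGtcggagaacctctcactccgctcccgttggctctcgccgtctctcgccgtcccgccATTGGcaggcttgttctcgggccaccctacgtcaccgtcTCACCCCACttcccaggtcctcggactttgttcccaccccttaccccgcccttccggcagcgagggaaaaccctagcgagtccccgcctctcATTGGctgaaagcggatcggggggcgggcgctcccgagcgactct
Sc5d chr9:42264301-42264550, minus strand: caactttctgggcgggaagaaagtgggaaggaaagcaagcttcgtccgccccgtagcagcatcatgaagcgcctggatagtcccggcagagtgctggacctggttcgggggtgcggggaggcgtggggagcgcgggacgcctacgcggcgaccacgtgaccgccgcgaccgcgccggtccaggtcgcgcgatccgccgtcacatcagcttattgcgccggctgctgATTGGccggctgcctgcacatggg
Npc1l1 chr11:6230246-6230495, minus strand: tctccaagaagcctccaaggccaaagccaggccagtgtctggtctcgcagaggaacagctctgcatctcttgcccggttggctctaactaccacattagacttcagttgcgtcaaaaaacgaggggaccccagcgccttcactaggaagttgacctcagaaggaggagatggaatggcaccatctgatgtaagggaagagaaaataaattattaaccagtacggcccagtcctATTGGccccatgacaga
Lss chr10:76531355-76531604, plus strand: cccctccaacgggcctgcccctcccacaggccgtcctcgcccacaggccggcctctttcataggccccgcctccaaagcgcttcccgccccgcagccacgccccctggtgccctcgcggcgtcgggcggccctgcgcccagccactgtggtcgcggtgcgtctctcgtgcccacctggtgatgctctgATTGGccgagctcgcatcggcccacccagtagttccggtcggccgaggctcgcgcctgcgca
Hmgcs1 held 3 NF-Y boxes besides the SREBP site, and the other promoters shown held 1 each. A match describes these letters only, and the absence of one says nothing about the factor.

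Per length of exon, Npc1l1, Abcg5, Soat2 and Abcg8 were among the most abundant of the 29 genes, while the other two genes of transport, Scarb1 and Abca1, were low, at 4.84 and 1.28 CPM per kilobase in periodontitis offspring and 7.19 and 0.87 in control offspring at 7 weeks. The mean level of Npc1l1 was 215 CPM per kilobase of exon in periodontitis offspring and 228 in control offspring at 7 weeks, and 58.1 and 60.2 at 2 weeks. Abcg5 followed at 128 and 121 CPM per kilobase at 7 weeks, Soat2 at 86.7 and 80.5, and Abcg8 at 76.2 and 63.6, in the same order of dams. Insig1, at 39.7 and 70.3 CPM per kilobase, stood above Abcg8 in control offspring of 7 weeks. At 2 weeks Abcg5 was the most abundant, at 103 CPM per kilobase in periodontitis offspring and 101 in control offspring. Npc1l1 then lay below Abcg8 (60.1) in periodontitis offspring and above Abcg8 (57.4) in control offspring. Among the 18 enzymes, Sc5d, Ebp and Hmgcs1 were the most abundant per length at 7 weeks, at 40.2, 38 and 24.3 CPM per kilobase in periodontitis offspring and 43.9, 38.6 and 25.5 in control offspring. Lss was the lowest enzyme per length in all 4 groups, at 0.591 CPM per kilobase in periodontitis offspring and 0.686 in control offspring at 7 weeks, and 1.34 and 1.31 at 2 weeks. Its exon length, 10787 bases, is the longest of the 29 genes, and the rank depends on it. In CPM at 2 weeks Lss averaged 14.5 and 14.1, above Mvk at 8.59 and 8.07 and Tm7sf2 at 8.85 and 8.65, in the same order of dams.

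**Figure D1:**
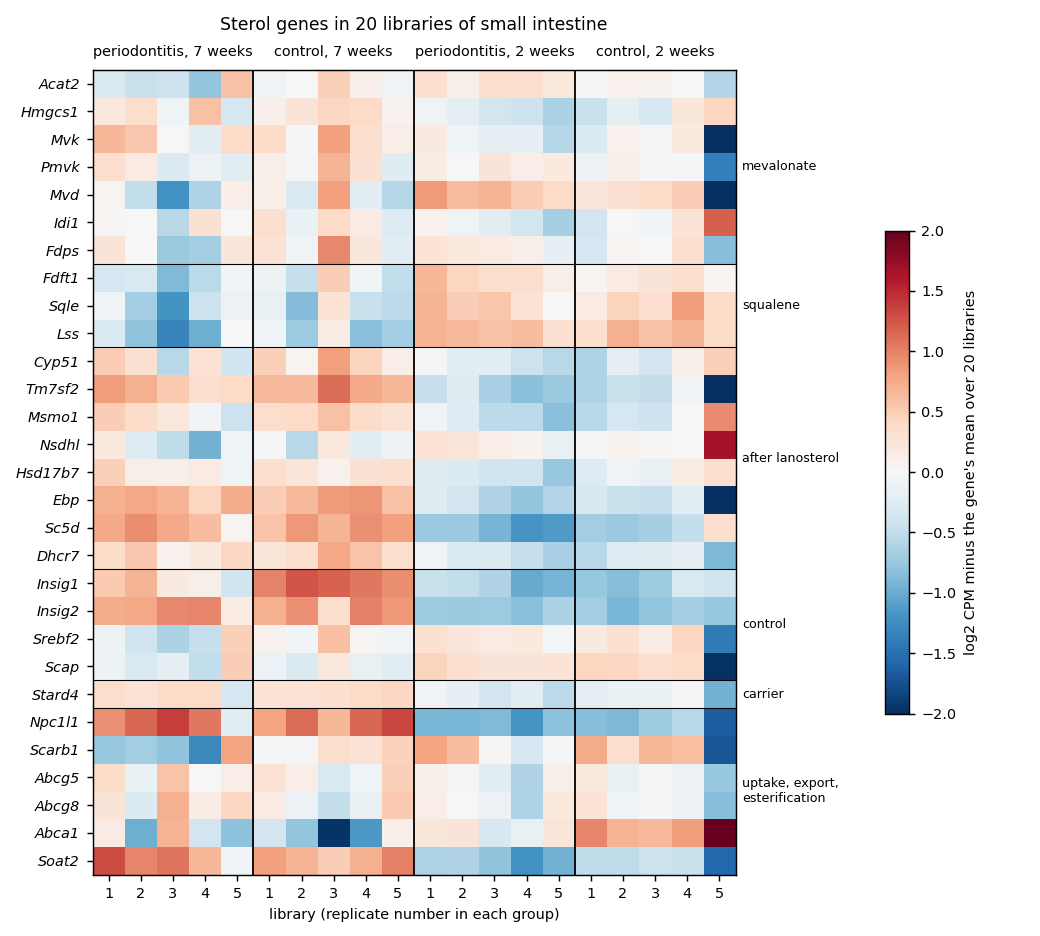
Level of each of the 29 sterol genes (rows, grouped by role) in each of the 20 libraries (columns), as log2 CPM minus the gene's mean over all libraries, with red above and blue below that mean. Npc1l1, Soat2, Insig1, Insig2 and Sc5d are red at 7 weeks outside periodontitis library 5 and mostly blue at 2 weeks, Lss is mostly the reverse, and control library 5 at 2 weeks differs from its group in many rows.

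The first comparison asks how the module changed between 2 and 7 weeks, an interval that spans weaning. In periodontitis offspring 12 of the 29 genes rose and 4 fell by 7 weeks (edgeR quasi-likelihood test, Benjamini-Hochberg adjusted p under 0.05). Of all genes tested 66.1% changed, with 30.4% higher and 35.7% lower. In control offspring 9 members rose and 3 fell, where 61.5% of all genes changed, 27.1% higher and 34.4% lower. CPM per library did not overlap between the ages, with 7 weeks higher, in 9 members in periodontitis offspring (24.9% of all genes) and 9 in control offspring (22.5%). They did not overlap, with 7 weeks lower, in 4 (28.3% of all genes) and 2 (23.2%). Both kinds of offspring shared 9 rises (Dhcr7, Ebp, Insig1, Insig2, Npc1l1, Sc5d, Soat2, Stard4 and Tm7sf2) and 2 falls (Lss and Sqle), while 12 genes passed in neither: Abcg5, Abcg8, Acat2, Cyp51, Fdps, Idi1, Mvk, Nsdhl, Pmvk, Scap, Scarb1 and Srebf2. The median log2 fold change of the 29 genes, 7 over 2 weeks, was 0.34 in periodontitis offspring and 0.27 in control offspring, beside -0.11 and -0.13 over all genes tested. In bulk tissue, fewer cells of a type and less RNA per cell cannot be told apart. Without control library 5 of 2 weeks, Hmgcs1, Cyp51, Msmo1 and Hsd17b7 also rose and Scap also fell in control offspring (17 genes called). Without periodontitis library 5 of 7 weeks, Acat2, Srebf2 and Scarb1 also fell in periodontitis offspring (19 genes called). The shares over all genes in these fits are not given here. The added calls are therefore not shown to be particular to the sterol genes.

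**Figure D2:**
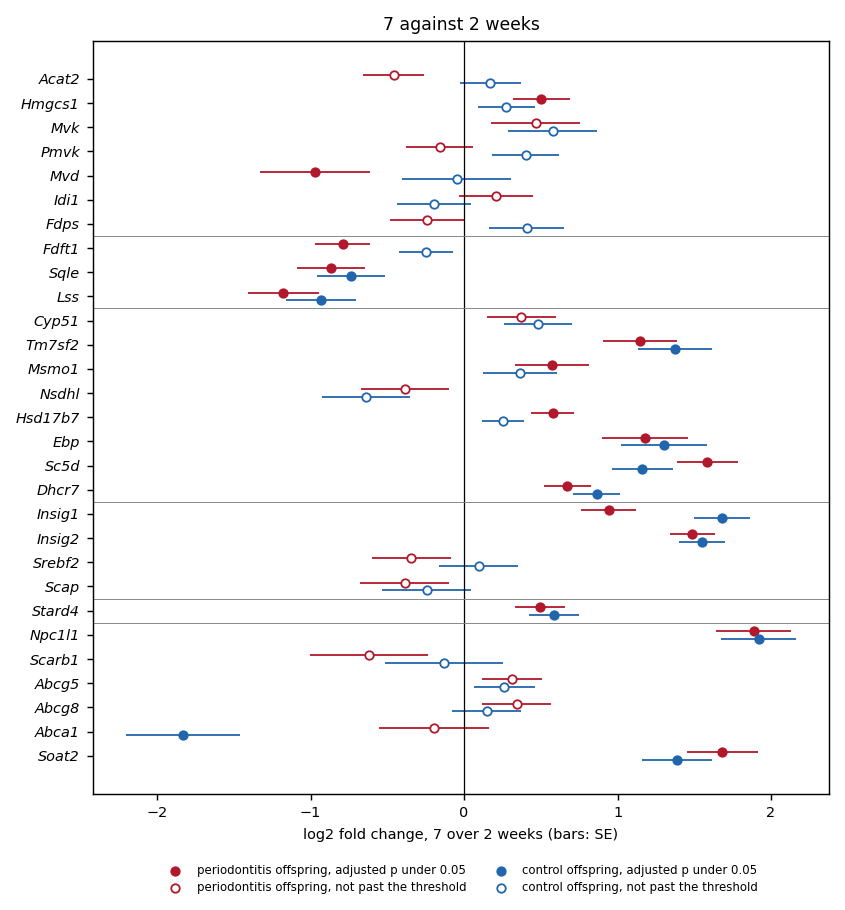
Log2 fold change of each gene, 7 over 2 weeks, with its standard error (bars), in periodontitis offspring (red) and control offspring (blue), filled where the adjusted p was under 0.05. Npc1l1 lies at 1.89 and 1.92, Lss at -1.18 and -0.93, and Abca1, at -0.20 and -1.83, shows the widest gap between the dams.

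Of the sterol sensor, both Insig genes rose and neither Srebf2 nor Scap passed with all libraries. Insig1 (ENSMUSG00000045294, chr5:28071363-28078662, plus strand, GRCm38, as for all genes below) encodes the Insig protein that SREBP itself induces. Its 5 libraries of periodontitis offspring at 7 weeks read 146, 164, 116, 110.5 and 77.3 CPM, and those at 2 weeks 75.4, 72.9, 67.1, 50.8 and 53.5 CPM. In control offspring they read 204, 244, 231, 213 and 194 CPM at 7 weeks and 60.4, 56.5, 62.7, 82.9 and 77.1 CPM at 2 weeks. All libraries of 7 weeks lay above all those of 2 weeks within each kind of dam, closely so for periodontitis library 5. The log2 fold change was 0.94 ± 0.18 (SE) in periodontitis offspring (edgeR adjusted p = 1.43e-04) and 1.68 ± 0.18 in control offspring (edgeR adjusted p = 5.41e-07).

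Insig2 (ENSMUSG00000003721, chr1:121304353-121332589, minus strand) encodes the paralog, which is not under the same feedback from SREBP. In periodontitis offspring it read 80.9, 82.9, 94, 95.2 and 54.4 CPM at 7 weeks and 29.4, 28.8, 29.2, 27.1 and 31.1 CPM at 2 weeks. In control offspring it read 79.4, 90.6, 61.9, 97.4 and 88.1 CPM at 7 weeks and 30, 25.5, 28, 30.6 and 28.4 CPM at 2 weeks. The 10 libraries of 2 weeks lay within a narrow band that no library of 7 weeks entered. It rose by 1.49 ± 0.15 on the log2 scale in periodontitis offspring and by 1.55 ± 0.15 in control offspring (edgeR adjusted p = 9.49e-08 and 1.11e-07), the smallest p of the 29 genes in both. Srebf2, which encodes SREBP2, averaged 65.2 ± 22.1 CPM at 7 weeks and 82.9 ± 7.1 CPM at 2 weeks in periodontitis offspring, and 81.1 ± 16.9 and 75.9 ± 27.9 CPM in control offspring (SD, n = 5 each). Its log2 fold changes were -0.34 ± 0.26 and 0.09 ± 0.26, and those of Scap -0.39 ± 0.29 and -0.24 ± 0.29. None of these 4 passed with all libraries. Without periodontitis library 5 of 7 weeks Srebf2 fell in periodontitis offspring by 0.59 ± 0.25 (edgeR adjusted p = 0.0479), and without control library 5 of 2 weeks Scap fell in control offspring by 0.49 ± 0.15 (edgeR adjusted p = 0.00581).

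The 7 enzymes from acetyl-CoA to farnesyl diphosphate gave 1 rise and 1 fall in periodontitis offspring and no call in control offspring, where 0 had an unadjusted p under 0.05 in edgeR. Hmgcs1, the cytosolic HMG-CoA synthase, lay at 77.6 to 148 CPM at 7 weeks and 63.2 to 93.5 CPM at 2 weeks in periodontitis offspring, and at 104 to 131 and 72.2 to 132 CPM in control offspring. It rose by 0.50 ± 0.18 in periodontitis offspring (edgeR adjusted p = 0.0218), and its log2 fold change in control offspring was 0.27 ± 0.18. Without control library 5 of 2 weeks it also rose in control offspring (0.41 ± 0.17, edgeR adjusted p = 0.0386). The periodontitis call was lost without periodontitis library 2 or 4 of 7 weeks or library 5 of 2 weeks (0.46, 0.38 and 0.43). Mvd, the decarboxylase that makes isopentenyl diphosphate, lay at 3.98 to 10.2 CPM at 7 weeks and 12.1 to 16.8 CPM at 2 weeks in periodontitis offspring, where it fell by 0.97 ± 0.36 (edgeR adjusted p = 0.0229). That call was lost without periodontitis library 3 or 4 of 7 weeks (-0.81 and -0.91). In control offspring Mvd differed by -0.05 ± 0.36.

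The other 5 did not pass in either. Acat2, the thiolase that joins 2 acetyl-CoA, differed by -0.46 ± 0.20 in periodontitis offspring and 0.17 ± 0.20 in control offspring; without periodontitis library 5 of 7 weeks it fell by 0.76 ± 0.16 in periodontitis offspring (edgeR adjusted p = 0.000287). The mevalonate kinase Mvk differed by 0.47 ± 0.29 and 0.58 ± 0.29, and the phosphomevalonate kinase Pmvk by -0.16 ± 0.22 and 0.40 ± 0.22. The isopentenyl isomerase Idi1 differed by 0.21 ± 0.24 and -0.19 ± 0.24, and the farnesyl diphosphate synthase Fdps by -0.24 ± 0.24 and 0.41 ± 0.25, in the same order of dams.

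The 3 enzymes that make and close squalene were lower at 7 weeks in all 6 estimates. All 3 fell in periodontitis offspring, and Sqle and Lss fell in control offspring. Lss (ENSMUSG00000033105, chr10:76531588-76557138, plus strand), the cyclase that makes lanosterol, read 8.02, 5.53, 3.85, 4.86 and 9.6 CPM at 7 weeks and 15.7, 15.2, 14.6, 14.8 and 12 CPM at 2 weeks in periodontitis offspring. Control offspring had 9.12, 5.79, 10.7, 5.41 and 6.04 CPM at 7 weeks and 12.1, 15.9, 14.5, 15.6 and 12.6 CPM at 2 weeks. Every library of 7 weeks lay below every library of 2 weeks. It fell by 1.18 ± 0.23 in periodontitis offspring and by 0.93 ± 0.23 in control offspring (edgeR adjusted p = 1.83e-04 and 0.00166).

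Sqle (ENSMUSG00000022351, chr15:59315077-59331192, plus strand), the squalene epoxidase, read 19.1, 12.2, 8.7, 14.8 and 18.4 CPM at 7 weeks and 31.9, 28.2, 29.4, 24.2 and 20.1 CPM at 2 weeks in periodontitis offspring. The control libraries read 18, 10.9, 24.1, 14.7 and 13.8 CPM at 7 weeks and 22.3, 27, 25.3, 35.5 and 26.1 CPM at 2 weeks. The ages did not overlap in periodontitis offspring, and did in control offspring through library 3 of 7 weeks. It fell by 0.87 ± 0.22 in periodontitis offspring and by 0.74 ± 0.22 in control offspring (edgeR adjusted p = 0.00201 and 0.00707).

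Fdft1 (ENSMUSG00000021273, chr14:63145150-63179578, minus strand), the squalene synthase, read 21.2, 21.8, 14.6, 18.6 and 25.8 CPM at 7 weeks and 42.5, 36.2, 34.4, 34.2 and 29.2 CPM at 2 weeks in periodontitis offspring, with no overlap. Among control offspring the values were 25.1, 19.4, 37.6, 26 and 19.2 CPM at 7 weeks and 28, 30.1, 32.3, 33.5 and 27.5 CPM at 2 weeks, where library 3 of 7 weeks exceeded all 5 younger libraries. It fell by 0.79 ± 0.18 in periodontitis offspring (edgeR adjusted p = 6.77e-04) and differed by -0.25 ± 0.18 in control offspring. Without control library 3 of 7 weeks it also fell in control offspring, by 0.43 ± 0.16 (edgeR adjusted p = 0.0267). Fdft1 shares 774 exon bases with Ctsb on the other strand (18.3% of its exons), and the strandedness of the counting was not given in the sources used here. Ctsb, a lysosomal protease, itself fell by 0.43 ± 0.17 in periodontitis offspring and differed by 0.27 ± 0.17 in control offspring. The part of Ctsb in the values of Fdft1 was not tested.

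Of the 8 enzymes after lanosterol among the 29 genes, 6 rose in periodontitis offspring and 4 in control offspring, and none fell. Lbr, which encodes another sterol reductase and was listed beside the members, fell in both kinds of offspring. It averaged 20.5 ± 9.06 and 20.6 ± 6.52 CPM at 7 weeks in periodontitis and control offspring. At 2 weeks it averaged 33.7 ± 3.39 and 36.4 ± 7.17 CPM (SD, n = 5 each). Sc5d (ENSMUSG00000032018, chr9:42251595-42264256, minus strand), a sterol desaturase late in the pathway, read 210.3, 237, 211, 192 and 129.7 CPM at 7 weeks and 74.9, 74.2, 65.1, 55 and 57.1 CPM at 2 weeks in periodontitis offspring. In control offspring it read 186, 227, 199.6, 235 and 219.8 CPM at 7 weeks and 76.7, 74.9, 78.8, 90 and 158 CPM at 2 weeks. The ages did not overlap within a kind of dam, although control library 5 of 2 weeks stood well above the other 4. The log2 fold change was 1.59 ± 0.20 in periodontitis offspring and 1.16 ± 0.20 in control offspring (edgeR adjusted p = 1.75e-06 and 6.48e-05), and 1.41 ± 0.15 in control offspring without control library 5.

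Ebp (ENSMUSG00000031168, chrX:8185329-8193512, minus strand), the sterol isomerase, read 89.7, 94.1, 88.2, 74.4 and 92.2 CPM at 7 weeks and 46.6, 42.7, 36.1, 32.1 and 36.6 CPM at 2 weeks in periodontitis offspring. Control offspring had 77.1, 86, 99, 101 and 82.3 CPM at 7 weeks and 44.2, 40.5, 40.1, 47.5 and 8.13 CPM at 2 weeks. Both older groups lay wholly above both younger ones. It rose by 1.18 ± 0.28 in periodontitis offspring and by 1.3 ± 0.28 in control offspring (edgeR adjusted p = 0.00114 and 5.74e-04), and by 1.05 ± 0.12 in control offspring without control library 5 of 2 weeks.

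Tm7sf2 (ENSMUSG00000024799, chr19:6062821-6068373, minus strand), a sterol reductase, read 23.4, 21.5, 18.9, 16.6 and 17.4 CPM at 7 weeks and 9.55, 11.1, 8.4, 7.33 and 7.85 CPM at 2 weeks in periodontitis offspring. The control libraries read 20.6, 20.7, 28.7, 22.3 and 20.9 CPM at 7 weeks and 8.56, 9.66, 9.44, 12.6 and 2.98 CPM at 2 weeks. Its ages did not overlap in either kind of offspring, and it rose by 1.15 ± 0.24 and 1.37 ± 0.24 in periodontitis and control offspring (edgeR adjusted p = 3.77e-04 and 8.91e-05). It shares 532 exon bases (12.1% of its exons) with Vps51 on the same strand, a trafficking gene that differed by 0.28 ± 0.24 and 0.53 ± 0.24 in the same 2 comparisons.

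Dhcr7 (ENSMUSG00000058454, chr7:143823145-143848410, plus strand), the reductase of the last step of one branch, read 36.7, 41.3, 30.4, 32.7 and 38.2 CPM at 7 weeks and 27.1, 23.3, 23.4, 20.7 and 18.2 CPM at 2 weeks in periodontitis offspring. Among control offspring the values were 34, 36.5, 48.8, 42.6 and 35.9 CPM at 7 weeks and 19.5, 24, 24.2, 25.4 and 15.4 CPM at 2 weeks. The ages were apart within each kind of dam, by a smaller step than for Ebp or Sc5d. It rose by 0.67 ± 0.15 in periodontitis offspring and 0.86 ± 0.15 in control offspring (edgeR adjusted p = 7.69e-04 and 9.44e-05).

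Hsd17b7 (ENSMUSG00000026675, chr1:169949535-169969241, minus strand), the sterol ketone reductase, read 23.9, 18.5, 18.5, 19.2 and 16.1 CPM at 7 weeks and 14.5, 14.2, 12.9, 12.9 and 10.1 CPM at 2 weeks in periodontitis offspring, where the ages did not overlap. In control offspring it read 21.5, 20.2, 18.1, 21.1 and 21.3 CPM at 7 weeks and 14.3, 16.1, 15.3, 18.9 and 21.2 CPM at 2 weeks, where they did. It rose by 0.58 ± 0.14 in periodontitis offspring (edgeR adjusted p = 0.00131) and differed by 0.25 ± 0.14 in control offspring, where it rose by 0.34 ± 0.12 without control library 5 of 2 weeks (edgeR adjusted p = 0.0208).

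Msmo1, the methylsterol monooxygenase, rose by 0.57 ± 0.24 in periodontitis offspring (edgeR adjusted p = 0.041), with 35.6 to 67.6 CPM at 7 weeks and 26.8 to 45.7 CPM at 2 weeks. That call was lost without periodontitis library 1, 2 or 3 of 7 weeks or library 3, 4 or 5 of 2 weeks, at log2 fold changes of 0.47, 0.52, 0.56, 0.55, 0.54 and 0.48. In control offspring it differed by 0.37 ± 0.24, and rose by 0.71 ± 0.17 without control library 5 of 2 weeks (edgeR adjusted p = 0.00124). The lanosterol demethylase Cyp51 differed by 0.37 ± 0.22 in periodontitis offspring and by 0.48 ± 0.22 in control offspring, and in control offspring it rose without library 5 of 2 weeks (0.66 ± 0.21) or without library 2 of 7 weeks (0.56 ± 0.23). Nsdhl, the sterol dehydrogenase that acts with Msmo1, differed by -0.39 ± 0.29 and -0.64 ± 0.29. Its 52 CPM in control library 5 of 2 weeks compare with 16.2 to 17.3 CPM in the other 4, and without control library 3 of 7 weeks or any 1 of libraries 1 to 4 of 2 weeks it passed as a fall in control offspring (-0.73 to -0.75). Without control library 5 of 2 weeks the log2 fold change in control offspring was -0.14 ± 0.17 (edgeR adjusted p = 0.481), so the fall rested on that library.

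Of the genes of uptake and esterification, Npc1l1 and Soat2 rose in both kinds of offspring. Npc1l1 (ENSMUSG00000020447, chr11:6211013-6230143, minus strand), the brush border protein through which dietary and biliary cholesterol enters and the target of the drug ezetimibe, had the largest rise of the 29 genes. In periodontitis offspring it read 940.0, 1106, 1293, 1034 and 429.5 CPM at 7 weeks and 265, 263, 269, 219.9 and 281 CPM at 2 weeks. Control offspring had 863, 1081, 786, 1100.0 and 1254 CPM at 7 weeks and 276, 267, 305, 339 and 158 CPM at 2 weeks. Each library of 7 weeks lay above all 10 of 2 weeks, with periodontitis library 5 far below the other 4 of its group. It rose by 1.89 ± 0.24 in periodontitis offspring and 1.92 ± 0.24 in control offspring (edgeR adjusted p = 2.18e-06 and 3.14e-06).

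Soat2 (ENSMUSG00000023045, chr15:102150526-102163469, plus strand), the enzyme that esterifies cholesterol for export in chylomicrons, read 261, 207, 222, 168 and 101 CPM at 7 weeks and 68.8, 69.3, 60.5, 45.6 and 54.8 CPM at 2 weeks in periodontitis offspring. The control libraries read 186, 169, 149, 173 and 214 CPM at 7 weeks and 74.5, 74.1, 78.1, 77.6 and 35.7 CPM at 2 weeks. As for Npc1l1, the ages did not overlap and the lowest library of 7 weeks was periodontitis library 5. It rose by 1.68 ± 0.23 in periodontitis offspring and 1.39 ± 0.23 in control offspring (edgeR adjusted p = 4.55e-06 and 4.76e-05).

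Stard4 (ENSMUSG00000024378, chr18:33199355-33213862, minus strand), the soluble protein that carries sterol between membranes, read 159, 152, 163, 162 and 97.2 CPM at 7 weeks and 119, 111, 96.1, 108 and 86.7 CPM at 2 weeks in periodontitis offspring. Among control offspring the values were 151, 153, 155, 163 and 166 CPM at 7 weeks and 110.2, 114, 113, 122 and 65 CPM at 2 weeks. Periodontitis library 5 of 7 weeks fell into the range of the younger libraries, and the control ages did not overlap. It rose by 0.50 ± 0.16 and 0.59 ± 0.16 in periodontitis and control offspring (edgeR adjusted p = 0.0123 and 0.00441); with no filter on low counts the periodontitis value did not pass (edgeR adjusted p = 0.0687).

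**Figure D3:**
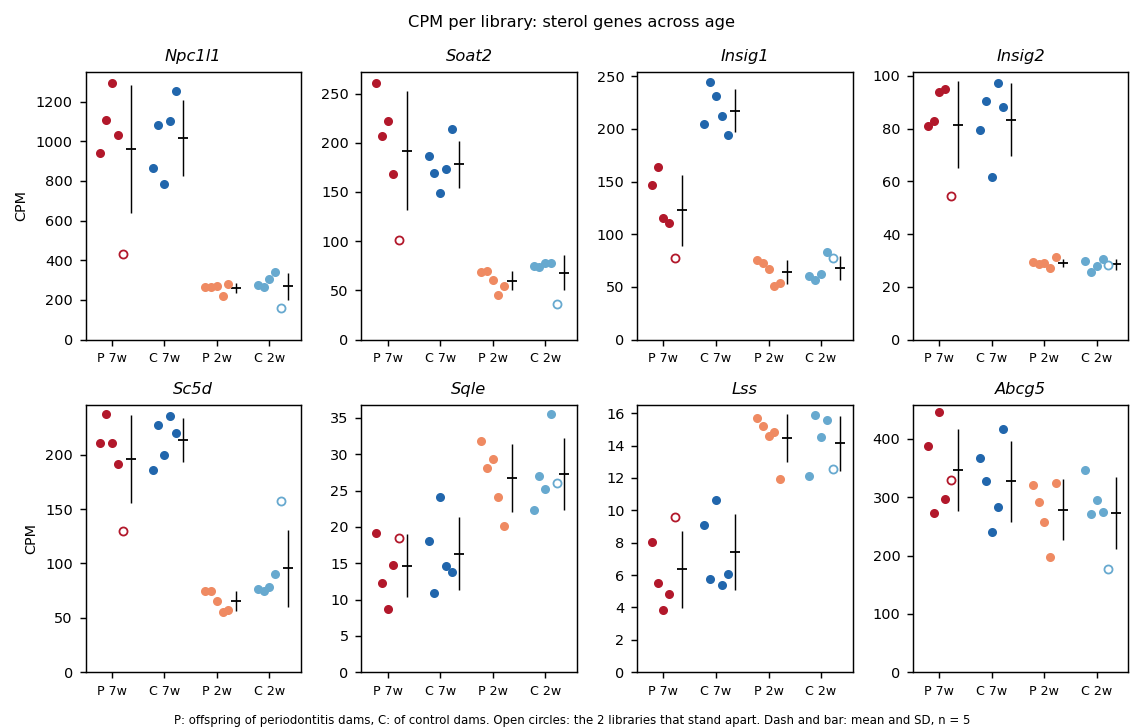
CPM per library of 8 sterol genes in periodontitis (P) and control (C) offspring at 7 and 2 weeks, with the mean and SD (n = 5) beside each group and open circles for periodontitis library 5 of 7 weeks and control library 5 of 2 weeks. Npc1l1, Soat2, Insig1, Insig2 and Sc5d stand higher at 7 weeks, Sqle and Lss lower, and the ages of Abcg5 overlap.

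The exporters behaved otherwise. Abcg5 and Abcg8, the paired subunits of the transporter that returns sterol to the lumen, lay at 273 to 446 and 194 to 383 CPM in periodontitis offspring at 7 weeks and at 198 to 325 and 152 to 271 CPM at 2 weeks. In control offspring they lay at 241 to 417 and 167 to 337 CPM at 7 weeks and 176 to 347 and 129.5 to 281 CPM at 2 weeks. Neither passed with age, with log2 fold changes of 0.31 ± 0.20 and 0.34 ± 0.22 in periodontitis offspring and 0.26 ± 0.20 and 0.15 ± 0.22 in control offspring. Their ratio in CPM was 1.29 ± 0.11 over the 20 libraries (SD), between 1.05 and 1.53, and the 2 genes share 82 exon bases on opposite strands.

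Abca1 (ENSMUSG00000015243, chr4:53030787-53159895, minus strand), which loads cholesterol onto apolipoprotein A-I at the basolateral side, read 16.2, 7.32, 23.5, 11 and 8.16 CPM at 7 weeks and 16.9, 17.4, 11.5, 13.1 and 17.2 CPM at 2 weeks in periodontitis offspring, with overlap. In control offspring it read 11.2, 8.34, 3.67, 6.46 and 15.4 CPM at 7 weeks and 28.6, 23.5, 22.7, 25.9 and 60.2 CPM at 2 weeks, with none. It fell by 1.83 ± 0.37 in control offspring (edgeR adjusted p = 3.19e-04), by 1.49 ± 0.34 without control library 5 of 2 weeks, and differed by -0.20 ± 0.36 in periodontitis offspring. Scarb1, the receptor for high-density lipoprotein, differed by -0.62 ± 0.39 in periodontitis offspring and -0.13 ± 0.38 in control offspring. Without periodontitis library 5 of 7 weeks it fell by 1.16 ± 0.34 in periodontitis offspring (edgeR adjusted p = 0.00603).

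Marker lists of cell types and intestinal regions moved with age as well. By 7 weeks 9 of 10 enterocyte markers rose in periodontitis offspring and 10 of 10 in control offspring, and all 8 markers of the weaned enterocyte rose in both. The summed weaned list lay at 10090 to 15670 CPM in periodontitis offspring and 12430 to 14850 CPM in control offspring at 7 weeks, and at 1316 to 3416 CPM and 3676 to 6695 CPM at 2 weeks. Of 9 proximal markers 7 rose and 2 fell in each comparison. Of 10 distal markers 6 fell and 1 rose in periodontitis offspring and 7 fell in control offspring, with sums of 1113 to 2896 and 2011 to 2862 CPM at 7 weeks and 2627 to 3697 and 3269 to 5496 CPM at 2 weeks. All 5 endothelial markers fell in both, with sums of 20.8 to 65.2 CPM and 23.8 to 49.2 CPM at 7 weeks and 151 to 170.2 CPM and 121 to 189 CPM at 2 weeks, and 7 and 9 of 10 proliferation markers fell. All 9 pancreatic enzyme genes fell, with sums of 5.58 to 11.6 CPM in periodontitis offspring and 5.81 to 10.4 CPM in control offspring at 7 weeks, and 154 to 1727 CPM and 241 to 1393 CPM at 2 weeks. The part of these lists in the changes of the sterol genes was not tested, and the intestinal stretch cannot be told apart from age.

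A further 41 genes of sterol sensing, oxysterols, endosomal export, membrane contacts and isoprenoid branches were listed beside the members. In periodontitis offspring 15 of the 41 rose and 12 fell by 7 weeks, and in control offspring 16 rose and 10 fell, with medians of 0.10 and 0.24 on the log2 scale. The share that passed, 65.9% and 63.4%, was near the 66.1% and 61.5% of all genes tested. Nr1h3, which encodes the oxysterol receptor LXR alpha, rose by 1.51 ± 0.15 in periodontitis offspring and 1.52 ± 0.15 in control offspring, with means of 71.6 ± 14.5 and 74 ± 6.36 CPM at 7 weeks and 25.1 ± 4.24 and 25.8 ± 2.39 CPM at 2 weeks (SD, n = 5 each). Of the 8 genes listed around LXR, 3 rose and 3 fell in periodontitis offspring and 5 rose and 3 fell in control offspring. Mylip, the ubiquitin ligase that removes lipoprotein receptors and is known as a gene LXR induces, had log2 fold changes of -1.97 ± 0.16 and -2.44 ± 0.17, and the exporter gene Abcg1 -2.32 ± 0.27 and -2.23 ± 0.27. Both fell in both kinds of offspring (edgeR adjusted p = 1.31e-08 and 3.57e-09 for Mylip, 5.75e-07 and 1.57e-06 for Abcg1).

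Gramd1c, a sterol carrier at contacts of the plasma membrane, rose by 2.55 ± 0.27 in periodontitis offspring and 2.15 ± 0.27 in control offspring. Erlin1, a sterol-binding protein of the endoplasmic reticulum that restrains SREBP, rose by 1.89 ± 0.20 in periodontitis offspring and 0.98 ± 0.20 in control offspring. Rnf139, a ubiquitin ligase of the same membrane, rose by 0.94 ± 0.14 and 0.99 ± 0.14. Cyp27a1, which makes an oxysterol, rose by 2.54 ± 0.28 and 1.22 ± 0.27. Soat1, the esterifying enzyme of most other cells, had log2 fold changes of -1.22 ± 0.16 and -1.06 ± 0.16, opposite in sign to those of Soat2, and fell in both kinds of offspring (edgeR adjusted p = 2.08e-06 and 1.52e-05).

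The second comparison sets offspring of periodontitis dams against offspring of control dams. At 7 weeks no sterol gene passed in edgeR, where 0.0115% of all genes tested did. In edgeR 1 member had an unadjusted p under 0.05, and so did 582 of the 17464 genes. DESeq2 called 1, Insig1, and its share over all genes at this age is not given here. At 2 weeks DESeq2 called far more of all genes than edgeR, as given in the last section. All 18 synthesis enzymes had a negative log2 fold change at 7 weeks, between -0.42 and -0.02 with a median of -0.18. Over all genes tested the median was 0.02, and 7875 of the 17464 were negative. Control library 3 was the highest of its group in 15 of the 18 enzymes; without it 15 of 18 were negative and the median was -0.09. Periodontitis library 3 was the lowest of its group in 9 of the 18. Enzymes that are high or low in the same library are not separate observations, so the count of signs was not tested. None of the 18 passed. Of the cell type lists, 0 of 10 enterocyte markers passed between dams at this age, and the adipocyte list, with 0 of 7 past the threshold, 5 at an unadjusted p under 0.05 and a median log2 fold change of 3.05, summed to 132 to 263 CPM in periodontitis offspring and 170.4 to 204 CPM in control offspring. The B cell list, with 0 of 5 past the threshold and 4 at an unadjusted p under 0.05, had a median log2 fold change of -2.22, of the same sign as the enzymes, and summed to 190 to 819 CPM in periodontitis offspring and 288 to 1105 CPM in control offspring. Control library 3, the highest in most enzymes, also had the highest sums of its group for B cell markers (1105 CPM), macrophage markers (169 CPM) and proliferation markers (271 CPM), and the lowest for enterocyte markers (78840 CPM). The part of these lists in the values of the enzymes was not tested.

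Insig1 was the clearest member between dams. As given above, it read 77.3 to 164 CPM in periodontitis offspring and 194 to 244 CPM in control offspring at 7 weeks, so the 2 groups did not overlap. Among all genes tested, 0.281% lay wholly lower in periodontitis offspring at this age. The means were 123 ± 33.5 CPM in periodontitis offspring and 217 ± 20.4 CPM in control offspring (SD, n = 5 each), with a log2 fold change of -0.82 ± 0.18 (edgeR adjusted p = 0.223; DESeq2 adjusted p = 0.0161). Without periodontitis library 5, the lowest, the log2 fold change was -0.69 ± 0.16 (edgeR adjusted p = 0.144). Insig2 differed by -0.04 ± 0.14, and the ratio of Insig1 to Insig2 in CPM was 1.52 ± 0.36 in periodontitis offspring and 2.68 ± 0.64 in control offspring. At 2 weeks Insig1 lay at 50.8 to 75.4 CPM in periodontitis offspring and 56.5 to 82.9 CPM in control offspring, with a log2 fold change of -0.09 ± 0.18.

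**Figure D4:**
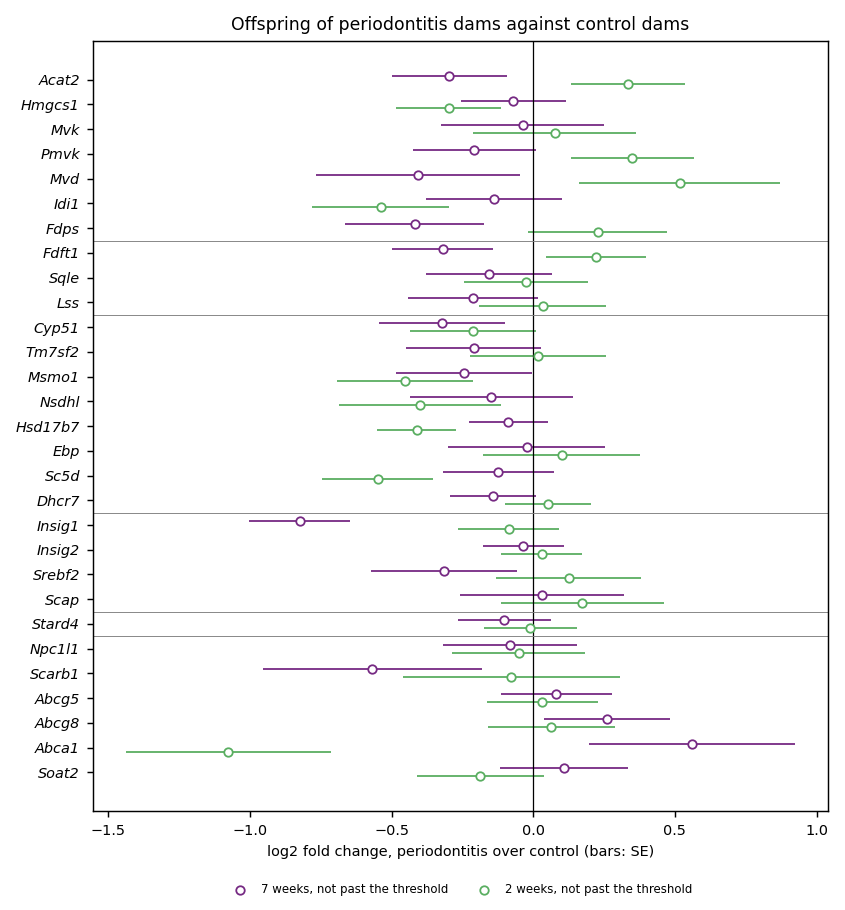
Log2 fold change of each sterol gene, periodontitis over control offspring, with its standard error (bars), at 7 weeks (purple) and 2 weeks (green), all open because no adjusted p was under 0.05. At 7 weeks the 18 enzymes lie left of 0 by at most 0.42 and Insig1 at -0.82, and at 2 weeks Abca1 lies at -1.08.

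The next smallest p at 7 weeks belonged to Fdft1, Fdps and Abca1. Fdft1 differed by -0.32 ± 0.18, with the values given above overlapping throughout, and by -0.14 ± 0.16 without control library 3. Fdps, the farnesyl diphosphate synthase, read 43.1, 36.3, 21.6, 22.5 and 42.6 CPM in periodontitis offspring and 43.9, 34.4, 70.6, 42.2 and 30.9 CPM in control offspring (-0.42 ± 0.25). Its highest value was that of control library 3, without which the log2 fold change was -0.19 ± 0.23, and the groups overlapped. Abca1 differed by 0.56 ± 0.36, also with overlap, and by 0.24 ± 0.36 without periodontitis library 3 (edgeR adjusted p = 1 for all 3 genes, with all libraries and without the library named).

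Scarb1 and Acat2 are described at 7 weeks because of 1 library, and were chosen after their values were seen. Scarb1 read 31.1, 32.3, 30.1, 21.5 and 90.9 CPM in periodontitis offspring and 51.4, 51.1, 66.7, 64 and 72.5 CPM in control offspring. Periodontitis libraries 1 to 4 lay below all 5 control libraries and library 5 above them. The log2 fold change was -0.57 ± 0.39 with all libraries and -1.08 ± 0.34 without periodontitis library 5 (edgeR adjusted p = 0.308), and with control library 5 of 2 weeks also left out it was -1.08 ± 0.20 (edgeR adjusted p = 0.0272). Acat2 read 22.8, 20.3, 20.7, 15.9 and 41.5 CPM in periodontitis offspring and 26.8, 27.7, 38.5, 29.8 and 26.3 CPM in control offspring, in the same arrangement. It differed by -0.30 ± 0.20 with all libraries, by -0.58 ± 0.16 without periodontitis library 5 (edgeR adjusted p = 0.23), and by -0.58 ± 0.11 without both (edgeR adjusted p = 0.0467). Periodontitis library 5 also had the highest summed endothelial markers of its group, 65.2 CPM, and the highest summed proliferation markers, 394 CPM; their part in the values of Scarb1 and Acat2 was not tested.

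**Figure D5:**
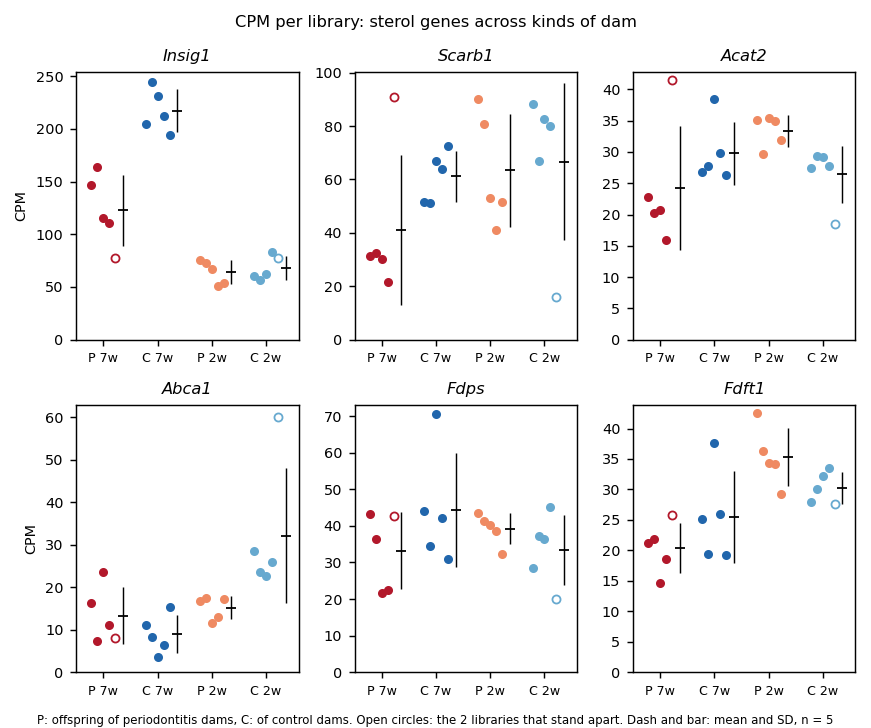
CPM per library of 6 sterol genes in periodontitis (P) and control (C) offspring at 7 and 2 weeks, with the mean and SD (n = 5) and open circles for periodontitis library 5 of 7 weeks and control library 5 of 2 weeks. Insig1 at 7 weeks and Abca1 at 2 weeks are lower in periodontitis offspring without overlap, and in Scarb1 and Acat2 at 7 weeks the open circle stands above its group.

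At 2 weeks no sterol gene passed in edgeR either, where 0.0286% of all genes tested did (0.0172% higher and 0.0115% lower), and DESeq2 called none of them; 4 members had an unadjusted p under 0.05, and so did 2511 of the 17464 genes. The members' median log2 fold change was 0.02, as was that of all genes tested. Abca1 had the smallest p. Its values above, 11.5 to 17.4 CPM in periodontitis offspring and 22.7 to 60.2 CPM in control offspring, did not overlap, as for 3.54% of all genes in this direction. The log2 fold change was -1.08 ± 0.36 (edgeR adjusted p = 0.174), and -0.73 without control library 5, which held the 60.2 CPM.

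Hsd17b7 lay at 10.1 to 14.5 CPM in periodontitis offspring and 14.3 to 21.2 CPM in control offspring, overlapping by 1 library (-0.41 ± 0.14, edgeR adjusted p = 0.179). Sc5d differed by -0.55 ± 0.20 (edgeR adjusted p = 0.2), with its highest periodontitis library at 74.88 CPM and its lowest control library at 74.92 CPM, so that the groups were barely apart. Without control library 5 it differed by -0.30 ± 0.14 (edgeR adjusted p = 0.411). Idi1 read 44.6, 39.7, 36.4, 32.8 and 26.6 CPM in periodontitis offspring and 32.6, 42.4, 40.1, 51 and 96.3 CPM in control offspring. Its log2 fold change of -0.54 ± 0.24 (edgeR adjusted p = 0.311) became -0.21 without control library 5. Acat2 was the 1 member wholly higher in periodontitis offspring, at 29.6 to 35.5 CPM against 18.4 to 29.4 CPM (0.33 ± 0.20, edgeR adjusted p = 0.462), as 3.71% of all genes were.

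The enzymes of a group tended to be high or low in the same library at this age. Periodontitis library 1 was the highest of its group in 15 of the 18 enzymes and library 5 the lowest in 13. In control offspring library 4 was the highest in 8, and library 5 was the highest in 7 and the lowest in 9. The weaned enterocyte list differed among the periodontitis libraries of 2 weeks, with sums of 3080 and 3416 CPM in libraries 1 and 2 and 1316 to 1663 CPM in libraries 3 to 5, against 3676 to 6695 CPM in control offspring. The suckling list was at 3153 to 7513 CPM in periodontitis offspring and 1925 to 3153 CPM in control offspring. Fabp6 and Slc10a2, given above, set periodontitis libraries 1 and 2 apart from libraries 3 to 5 as the weaned list did. The part of these lists and markers in the values of the sterol genes was not tested.

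Whether the dam's condition acted alike at both ages was tested as an interaction, which is also the difference between the age changes of the 2 kinds of offspring. No sterol gene passed, where 0.0229% of all genes did, and DESeq2 called none. Over all genes 1537 of 17464 had an unadjusted p under 0.05 in edgeR, and so did 4 members. These were Abca1 (1.64 ± 0.51, edgeR adjusted p = 0.421), Insig1 (-0.74 ± 0.25, edgeR adjusted p = 0.486), Acat2 (-0.63 ± 0.28, edgeR adjusted p = 0.558) and Fdft1 (-0.54 ± 0.25, edgeR adjusted p = 0.565). The calls with age that were made in 1 kind of offspring alone (Hmgcs1, Hsd17b7, Msmo1, Fdft1, Mvd and Abca1) are therefore not shown to differ between dams. Without control library 3 of 7 weeks Fdft1 was at -0.36 ± 0.22. Without periodontitis library 5 of 7 weeks Acat2 did not pass (-0.91 ± 0.21, edgeR adjusted p = 0.0965), and without both libraries that stood apart it passed (-0.81 ± 0.16, edgeR adjusted p = 0.0275).

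Among the other 41 sterol genes no dam comparison gave a call in edgeR, with 1 gene at an unadjusted p under 0.05 at 7 weeks, 5 at 2 weeks and 5 for the difference. Over all 17464 genes the same counts were 582, 2511 and 1537. At 7 weeks Erlin1 had the smallest p, at 0.55 ± 0.20, with means of 156 ± 51.7 CPM in periodontitis offspring and 107 ± 21.1 CPM in control offspring (SD, n = 5 each; edgeR adjusted p = 1). At 2 weeks Cyp27a1 averaged 7.78 ± 3.38 CPM in periodontitis offspring and 16.9 ± 3.56 CPM in control offspring, a log2 fold change of -1.12 ± 0.27 (edgeR adjusted p = 0.0645). Its periodontitis libraries 1 and 2 read 11 and 11.9 CPM and libraries 3 to 5 5.17 to 5.39 CPM, against 14.2 to 23.1 CPM in control offspring. Pdss1, of ubiquinone synthesis, differed by -0.95 ± 0.26 at 2 weeks (edgeR adjusted p = 0.0954). It read 21.6, 23.7, 13.7, 9.52 and 9.61 CPM in periodontitis offspring and 22.7, 24.3, 24.3, 26.2 and 54.3 CPM in control offspring, so that periodontitis libraries 1 and 2 lay near the control libraries and control library 5 stood apart. Without control library 5 Pdss1 differed by -0.64 ± 0.21 (edgeR adjusted p = 0.155). Npc2, which hands cholesterol on within lysosomes, differed by 0.79 ± 0.21 (edgeR adjusted p = 0.0975; without control library 5 0.61 ± 0.15, edgeR adjusted p = 0.0715), and the sums of the suckling list, which holds lysosomal genes, are given above.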

How the data were processed

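The deposited table holds RSEM expected counts per gene, as whole numbers, for 20 libraries. Per the submitters' processing notes, the authors used cutadapt 4.8, FastQC 0.11.8, STAR 2.7.8a and RSEM 1.3.3 with the builds GRCh38 and GRCm38; annotation release and strandedness are not given in the sources used here. Of 55491 lines, 4 name no mouse gene and hold 0 counts. Coordinates come from GENCODE M21 (GRCm38), which matched 55141 of 55487 gene rows, and CPM per kilobase use its union exon length.

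Counts were tested in R 4.3.3 with edgeR 4.0.16: filterByExpr (17464 genes, at most 0.0838% of a library's counts removed), TMM, 1 mean per group over all 20 libraries, and a robust quasi-likelihood test with 16 residual degrees of freedom. Two-sided p-values were adjusted over the 17464 genes by the Benjamini-Hochberg method, with a threshold of 0.05. The standard error (SE) is worked back from the F statistic. CPM are TMM-scaled, and log2 CPM use a prior count of 2. No 2 libraries of a group agreed within sampling noise, and 0 columns belonged to other samples. The procedure was tested on simulated data.

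Members and lists were chosen with earlier results of these data known. Values per library are given for up to 12 members called in a comparison, by smallest p, or for the 4 of smallest p where fewer passed, and up to 6 other sterol genes of smallest p are named per comparison. Alternatives were DESeq2 1.42.0 and its size factors, 2 filters, the replicate number as a block, estimation that is not robust, the compared groups alone, and removal of each library or of both that stand apart. Promoter matches were counted without a test.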

Additional observations from a re-analysis of the deposited data

Results flagged for a closer look

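Within each group of 5, a library was singled out where its gap to the nearest other, over the range of the group, exceeded Dixon's critical value of 0.71. Among 116 pairs of gene and group, 21 were singled out, where chance alone would give about 1 in 20, or 5.8.

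Control library 5 of 2 weeks accounted for 13. It was high in Idi1 (96.3 CPM), Msmo1 (91.9), Nsdhl (52.0), Sc5d (158) and Abca1 (60.2). It was low in Acat2 (18.4 CPM), Pmvk (5.31), Mvd (1.93), Ebp (8.13), Srebf2 (27.45), Scap (6.68), Stard4 (65.0) and Soat2 (35.7). This library also had the lowest depth and the highest mitochondrial share.

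Control library 3 of 7 weeks was high in Acat2 (38.5 CPM), Tm7sf2 (28.7), Msmo1 (71.9) and Srebf2 (111). Periodontitis library 5 of 7 weeks was high in Acat2 (41.45 CPM) and Scarb1 (90.9) and low in Stard4 (97.2). Periodontitis library 4 of 2 weeks was low in Npc1l1 (219.9 CPM).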

How the results depend on the processing

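Counts of called sterol genes between dams were 0 in all fits except 3: at 7 weeks DESeq2 gave 1 (Insig1) and leaving out both libraries that stand apart gave 2 (Acat2 and Scarb1), and for the difference between ages leaving out both gave 1 (Acat2). Leaving out single libraries gave 0 to 0 for each of the 3 dam comparisons, 14 to 19 calls for age in periodontitis offspring (16 with all) and 12 to 17 in control offspring (12 with all). Leaving out both libraries gave 23 and 17 calls with age in periodontitis and control offspring. Shares over all genes are not given here for the age counts of these fits, nor for the dam calls without both libraries. These gains are therefore not shown to be particular to the sterol genes. With the replicate number as a block the counts were 0, 0 and 0 between dams, 15 for age in periodontitis offspring, where Msmo1 was lost (0.58 ± 0.26, edgeR adjusted p = 0.0673), and 12 in control offspring. Deviations of libraries with the same number correlated at -0.40 to 0.29. Libraries with different numbers were not compared, so these values do not settle whether the numbers pair the libraries. With no filter, Hmgcs1 (0.42, edgeR adjusted p = 0.0687), Msmo1 (0.50, 0.082) and Stard4 were lost for age in periodontitis offspring; the cause was not tested. For 43 pairs of gene and comparison (the genes called or, with none called, the 4 with the smallest p, plus Scarb1 and Acat2), 800 of 819 values under the alternatives kept direction and side of the threshold, 15 lost the call, 4 gained it and 0 reversed. Over all 29 genes, leaving out 1 library at a time gained 15 calls in 10 genes and lost 11 in 3, all with age. Of 2871 values of all 29 genes under the alternatives, 111 had the other sign, none of them called. Over all genes, calls at 2 weeks between dams were 3 higher and 2 lower, against 248 and 351 in DESeq2, 172 and 215 without periodontitis library 2, and 0 without any 1 of 7 other libraries. Depth, at 14882204 counts, limits the low genes of control library 5 of 2 weeks most, such as Mvd at 1.93 CPM.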
